A study of Homo sapiens with 6 samples.

Results

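OSGIN1, OSGIN2, PIR, ABHD4, TRIM16, TRIM16L and NMRAL2P are 7 of the 61541 human genes counted by RNA-seq in luciferases-expressing HepG2 cells treated with sedanolide. They are known NRF2 target genes that are studied less often than the classical antioxidant enzymes, together with close relatives of such genes. The 7 symbols were matched to Ensembl rows of the count table, all 7 were found, and all 7 passed the filter on low counts. The set was selected from earlier results of the same comparison of sedanolide-treated with control cells. The differences below are therefore given as descriptions with intervals, and no p-value of a member is printed. Where a member is said to pass or miss an FDR threshold, that is a description too. OSGIN1 was 3.63-fold higher in sedanolide-treated cells, PIR 2.16-fold, NMRAL2P 1.92-fold and ABHD4 1.58-fold, and in these 4 genes every sedanolide library lay above every control library. In OSGIN2, TRIM16 and TRIM16L the libraries of the conditions overlapped.

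HepG2 is a human hepatoblastoma line, and all 6 libraries came from the derivative that carries a red luciferase (SLR3) under an antioxidant response element (ARE) and a green luciferase (ELuc) under a thymidine kinase promoter, so that control and treated cells share both reporters. Sedanolide is a phthalide of celery, and the treated cells received it at 100 μM for 24 h, whereas the labels do not say what the control cells received (n = 3 libraries in each condition). The cells are a drug-selected reporter line, and the sources used here do not say that the libraries of a condition came from separate cultures, so that p-values measure only the spread between these libraries. The comparison asks which transcripts differ after sedanolide treatment.

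In unstressed cells, KEAP1 binds the transcription factor NRF2 and directs it to degradation. Electrophiles and oxidants modify KEAP1, after which NRF2 accumulates in the nucleus, pairs with a small MAF protein and binds AREs near its target genes. Best known in the liver are targets that make glutathione, reduce quinones and export conjugates, whereas the genes described here encode a growth regulator, an iron-binding protein, a lipid hydrolase, a tripartite motif protein and a pseudogene transcript.

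The libraries held 16420258 to 26714853 expected counts each. Of 14102 genes tested, 50 passed an FDR of 0.05 together with a 1.5-fold difference upward and 44 did so downward, which are 0.355% and 0.312% of the genes (edgeR quasi-likelihood test). All 8 hepatocyte markers examined, among them ALB and APOB, passed the filter, whereas PTPRC and COL1A1, which mark leukocytes and fibroblasts, had 0 to 3 counts per library and the endothelial marker VWF had 0. Treated libraries lay below all controls in 3 of the 8 hepatocyte markers (ALB, TTR and FGB) and above in 0, beside 9.65% and 8.69% of all genes tested. Of the 8, 1 had a positive log2 fold change. Of the 3 markers of other cell types that were tested, PDGFRB (96 to 563 counts per library) lay below all controls (log2 fold change -1.42). CD68 (200 to 380 counts) lay above (0.36) and PECAM1 (71 to 137 counts) overlapped. By edgeR 0 of these 11 genes passed both thresholds, and 4 had an unadjusted p-value under 0.05, as had 11.9% of all genes tested. PDGFRB was called by DESeq2. Their part in the results was not tested. The libraries also fell into a pair of sets that each hold both conditions, though in unequal numbers. Component 1 of log2 CPM held 56.1% of the variance and separated control 1, control 2 and sedanolide 3 from control 3, sedanolide 1 and sedanolide 2, and mitochondrial genes took 1.43% to 2.15% of the counts in the former and 4.23% to 5.22% in the latter. These sides were found in the data and are no batch named in the labels. With the side as a term in the edgeR fit, PDGFRB was past both thresholds at a log2 fold change of -1.19.

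OSGIN1, oxidative stress induced growth inhibitor 1, is a growth-restraining gene known to respond to oxidative stress and oxidized lipids. It is a protein-coding gene (ENSG00000140961) on the forward strand of chromosome 16, from 83931311 to 83966332 of GRCh38. The promoters of OSGIN1 and PIR are shown because these genes had the largest differences among the members with a promoter in the RefSeq table (GRCh38.p14), which holds 250 bases before to 50 bases after the transcription start. That of OSGIN1 spans chr16:83952990-83953289 on the forward strand, inside the longer GENCODE 44 model of the gene, and capitals mark the letters TGACTCA. That of PIR spans chrX:15493284-15493583 and is given on the reverse strand, 5′ to 3′ along the gene. Its capitals mark the letters of an ARE, the element of the SLR3 reporter, which read TGACTCAGC on the opposite strand.
OSGIN1 promoter: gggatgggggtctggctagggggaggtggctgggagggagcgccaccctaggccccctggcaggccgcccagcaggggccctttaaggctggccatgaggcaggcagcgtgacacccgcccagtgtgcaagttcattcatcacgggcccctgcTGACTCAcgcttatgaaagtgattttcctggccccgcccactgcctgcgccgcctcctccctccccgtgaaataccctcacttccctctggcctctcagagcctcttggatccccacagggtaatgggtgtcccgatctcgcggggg
PIR promoter: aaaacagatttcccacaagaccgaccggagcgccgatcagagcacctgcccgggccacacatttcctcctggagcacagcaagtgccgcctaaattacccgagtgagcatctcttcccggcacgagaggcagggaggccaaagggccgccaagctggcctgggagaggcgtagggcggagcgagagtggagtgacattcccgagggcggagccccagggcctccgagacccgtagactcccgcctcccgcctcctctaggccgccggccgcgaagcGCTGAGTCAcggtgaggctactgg

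OSGIN1 was expressed at 34.5, 22.8 and 30.6 CPM (counts scaled to library size with TMM factors) in controls 1 to 3 and at 123.7, 97.9 and 97.3 CPM in sedanolide 1 to 3. The lowest treated library lay well above the highest control, and the rounded counts behind these values were 539 to 570 in control cells and 2301 to 2534 in treated cells. On average OSGIN1 stood at 29.3 ± 5.95 CPM without sedanolide and at 106.3 ± 15.1 CPM with it (SD, n = 3). Its log2 fold change was 1.86, with a standard error of 0.19 and a 95% interval from 1.41 to 2.31, which is a fold between 2.66 and 4.95. OSGIN1 was the member past both thresholds, and its log2 fold change ranked 20 among all genes tested. In bulk RNA, a change in the number of cells expressing a gene and a change in RNA per cell cannot be told apart.

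**Figure D1:**
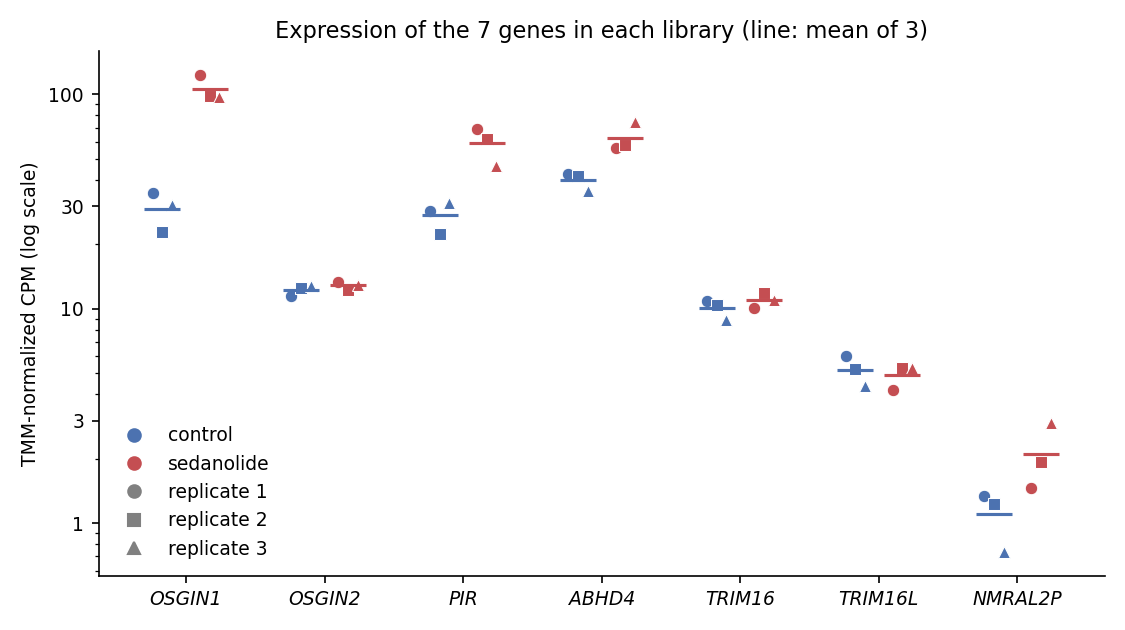
Normalized expression in CPM on a log axis for each of the 7 genes, with 1 point per library (control in blue, sedanolide in red, 3 each) and a line at each mean. The sedanolide libraries of OSGIN1 lie between 97.3 and 123.7 CPM and its controls between 22.8 and 34.5 CPM, whereas the points of OSGIN2, TRIM16 and TRIM16L interleave.

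OSGIN2, the closest relative of OSGIN1, did not share this difference. It is a protein-coding gene (ENSG00000164823) on the forward strand of chromosome 8, from 89901849 to 89927888. Its expression was 11.5, 12.5 and 12.8 CPM in controls 1 to 3 and 13.3, 12.3 and 12.96 CPM in sedanolide 1 to 3, so that the libraries overlapped. Its log2 fold change was 0.07 (standard error 0.12, 95% interval -0.21 to 0.35), which covers folds from 0.864 to 1.28. The interval of OSGIN2 ends at 1.28-fold and that of OSGIN1 begins at 2.66-fold. Both genes were chosen from this very comparison, so that nothing is read from the distance between these bounds. In TPM, which corrects the levels for transcript length, OSGIN1 stood at 4.77, 3.25 and 3.77 times OSGIN2 in controls 1 to 3 and at 14.8, 13.1 and 11.7 times in sedanolide 1 to 3.

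PIR encodes pirin, an iron-binding nuclear protein of the cupin fold that is known to bind BCL3 and NF-kB proteins. The gene (ENSG00000087842, protein coding) lies on the reverse strand of chromosome X, from 15384799 to 15493564. Its promoter is printed above, beside that of OSGIN1.

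PIR was expressed at 28.5, 22.4 and 31.2 CPM in controls 1 to 3 and at 69.2, 62.0 and 46.2 CPM in sedanolide 1 to 3. All treated libraries lay above all controls, and sedanolide 3 was the lowest of the treated libraries. The mean was 27.3 ± 4.52 CPM in controls against 59.1 ± 11.8 CPM after treatment (SD, n = 3). This gave a log2 fold change of 1.11 (standard error 0.20, 95% interval 0.65 to 1.58), or 2.16-fold with an interval from 1.57 to 2.98. PIR did not reach the FDR threshold in the edgeR fit, and its log2 fold change ranked 105 among all genes tested.

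ABHD4 is a serine hydrolase that acts on N-acyl phospholipids in the synthesis of N-acylethanolamines, the lipid class of anandamide. The gene (ENSG00000100439, protein coding) lies on the forward strand of chromosome 14, from 22598290 to 22612963. Its expression was 42.6, 41.4 and 35.5 CPM in controls 1 to 3 and 56.1, 58.2 and 74.4 CPM in sedanolide 1 to 3. The conditions did not overlap, although sedanolide 3 was here the highest treated library, the reverse of its place in PIR. Controls averaged 39.8 ± 3.81 CPM and treated cells 62.9 ± 9.99 CPM (SD, n = 3), so that the log2 fold change was 0.66 (standard error 0.15, 95% interval 0.30 to 1.01). The fold was 1.58, between 1.23 and 2.02, and the FDR threshold was not reached.

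TRIM16 is a tripartite motif protein that binds galectins at damaged lysosomes and takes part in autophagy, and TRIM16L is a shorter copy of it that GENCODE 44 lists as a transcribed pseudogene. TRIM16 (ENSG00000221926) lies on the reverse strand of chromosome 17, from 15627960 to 15684311, and TRIM16L (ENSG00000108448) on the forward strand from 18722237 to 18735460. TRIM16 was expressed at 10.8, 10.5 and 8.87 CPM in controls 1 to 3 and at 10.1, 11.9 and 11.0 CPM in sedanolide 1 to 3. TRIM16L was expressed at 6.00, 5.21 and 4.35 CPM in controls 1 to 3 and at 4.19, 5.29 and 5.27 CPM in sedanolide 1 to 3. In both genes the libraries overlapped, and control 3 was at the lower end of the control range. The log2 fold change was 0.13 for TRIM16 (standard error 0.14, 95% interval -0.20 to 0.46) and -0.07 for TRIM16L (standard error 0.18, 95% interval -0.50 to 0.36). In TPM, TRIM16 stood at 1.52 to 1.63 times TRIM16L in control cells and at 1.68 to 1.88 times in treated cells.

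Reads can be shared between these copies. Of all stretches of 150 bases in the TRIM16 transcripts, 5.49% occur also in TRIM16L and 14.9% in ENSG00000251537, a protein-coding gene that overlaps TRIM16 on the same strand, while 7.5% of the TRIM16L stretches occur in TRIM16. The expected counts of both genes have decimals, as RSEM gives where it divides reads between genes, whereas those of the other 5 members are whole numbers. With the counts of TRIM16 and TRIM16L summed into 1 value, an alternative chosen after seeing the data, the log2 fold change was 0.06 (standard error 0.14). OSGIN1 shares 457 exonic bases with MLYCD on the same strand, and the counts of MLYCD were 6.26%, 10.4% and 9.12% of those of OSGIN1 in the control libraries and 1.67%, 1.72% and 1.70% in the treated ones. OSGIN2 shares 827 exonic bases with NBN on the opposite strand, and the library kit is directional. The counts of NBN were 489% to 499% of those of OSGIN2 in the control libraries and 471% to 569% in the treated ones. Whether the counts kept the strands apart was not tested.

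NMRAL2P is a transcribed pseudogene related to the NADPH sensor NMRAL1 and is known as an NRF2-driven transcript. It lies on the forward strand of chromosome 3 (ENSG00000171658), from 185960039 to 185979837. Its counts were low, namely 22, 29 and 13 for controls 1 to 3 against 27, 50 and 74 for sedanolide 1 to 3. These correspond to 1.33, 1.23 and 0.735 CPM in control cells and to 1.45, 1.93 and 2.93 CPM in treated cells. The conditions did not overlap, but sedanolide 1 lay only slightly above control 1. The estimate was 0.94 on the log2 scale (standard error 0.35), and its interval from 0.12 to 1.77 was the widest of the 7 genes. The fold was 1.92, between 1.08 and 3.40, and the FDR threshold was not reached.

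Of the 7 members, 1 was past both thresholds in the higher direction and 0 in the lower, beside the background of 0.355% and 0.312% given above. The sedanolide libraries lay above all controls in 4 of the 7, as in 8.69% of all genes tested, and below all controls in 0, as in 9.65%. Since the members were taken from this very comparison, these shares describe the set and nothing is read from them. The median log2 fold change of the members was 0.66, and that of all genes tested was 0.0057.

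**Figure D2:**
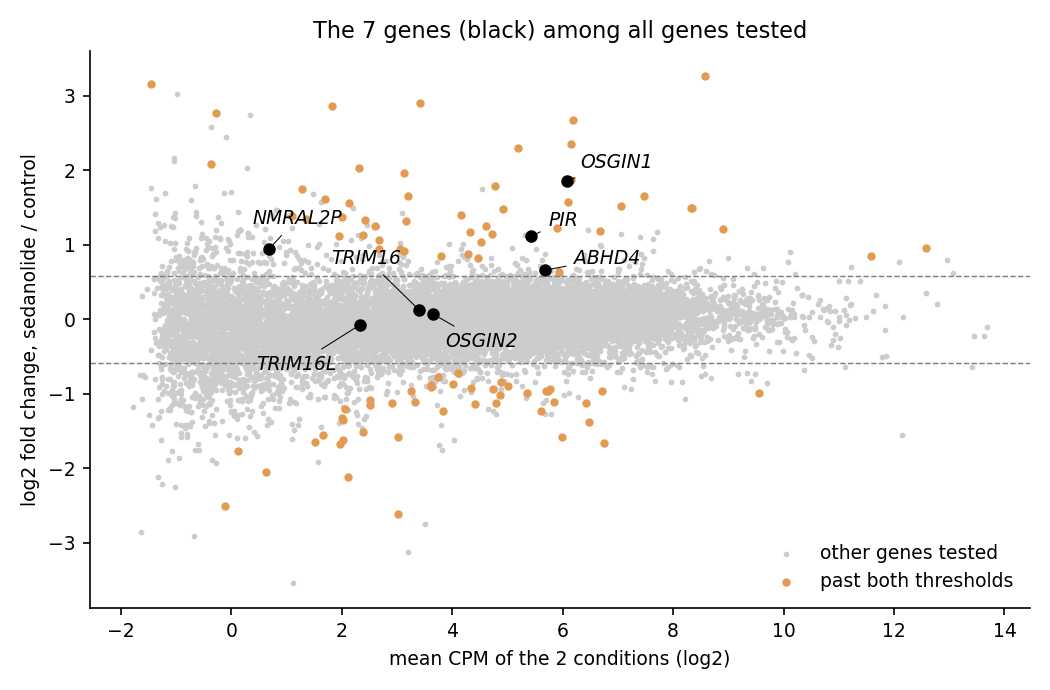
Log2 fold change of sedanolide over control against mean expression (log2 CPM) for the 14102 genes tested, with the 7 genes in black, genes past both thresholds in orange and dashed lines at a fold change of 1.5. OSGIN1 (1.86) and PIR (1.11) stand toward the upper edge of the cloud, and OSGIN2, TRIM16 and TRIM16L lie near 0.

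Levels were compared between genes per length, in TPM from the second deposited table, which holds 6 of the members and no row for NMRAL2P. In control cells the order was PIR at 36.5 ± 3.78, OSGIN1 at 24.0 ± 3.85, ABHD4 at 22.3 ± 1.98, TRIM16 at 9.63 ± 1.37, OSGIN2 at 6.14 ± 0.228 and TRIM16L at 6.10 ± 1.04 TPM (SD, n = 3). The neighbours OSGIN1 and ABHD4 overlapped between libraries, as did OSGIN2 and TRIM16L. In sedanolide-treated cells OSGIN1 came first at 82.0 ± 7.94 TPM and PIR second at 73.5 ± 8.08 TPM, with libraries that overlapped. Within each library, however, PIR stood at 1.40 to 1.60 times OSGIN1 in control cells and at 0.802 to 0.992 times in treated cells, so that PIR lay above OSGIN1 in every control library and below it in every treated library. ABHD4 followed at 32.5 ± 6.40 TPM, then TRIM16 at 9.65 ± 1.56, OSGIN2 at 6.25 ± 0.651 and TRIM16L at 5.47 ± 1.04 TPM, and the last 2 again overlapped.

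The members were also compared within each side of component 1, since that direction held most of the variance. After condition means were subtracted, Pearson r of log2 CPM with component 1 was -0.96 for PIR, 0.94 for ABHD4, 0.95 for NMRAL2P and -0.61 for OSGIN1. It was -0.27 for OSGIN2, 0.59 for TRIM16 and 0.70 for TRIM16L. Among control 1, control 2 and sedanolide 3, the log2 difference of sedanolide from control was 1.79 for OSGIN1, 0.87 for PIR, 0.82 for ABHD4 and 1.20 for NMRAL2P. Among control 3, sedanolide 1 and sedanolide 2, it was 1.85 for OSGIN1, 1.07 for PIR, 0.69 for ABHD4 and 1.19 for NMRAL2P. Each side has 1 library in one of its conditions, and since the conditions do not overlap in these 4 genes, the positive sign within each side was fixed beforehand and only the sizes are of use. OSGIN2 differed by 0.12 and -0.0037, TRIM16 by 0.04 and 0.30 and TRIM16L by -0.08 and 0.11, in the same order. When the edgeR fit took the side into account, 4 of the 7 members were past both thresholds, where 1.06% of all genes were called as higher. These were OSGIN1 at a log2 fold change of 1.81, NMRAL2P at 1.20, PIR at 0.97 and ABHD4 at 0.76. The estimate of TRIM16L turned to 0.02 in this fit. DESeq2, without the side, called OSGIN1, PIR and ABHD4, where 0.915% of all genes were called as higher. The members were taken from this very comparison and the sides from these same libraries, so that nothing is read from these counts.

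**Figure D3:**
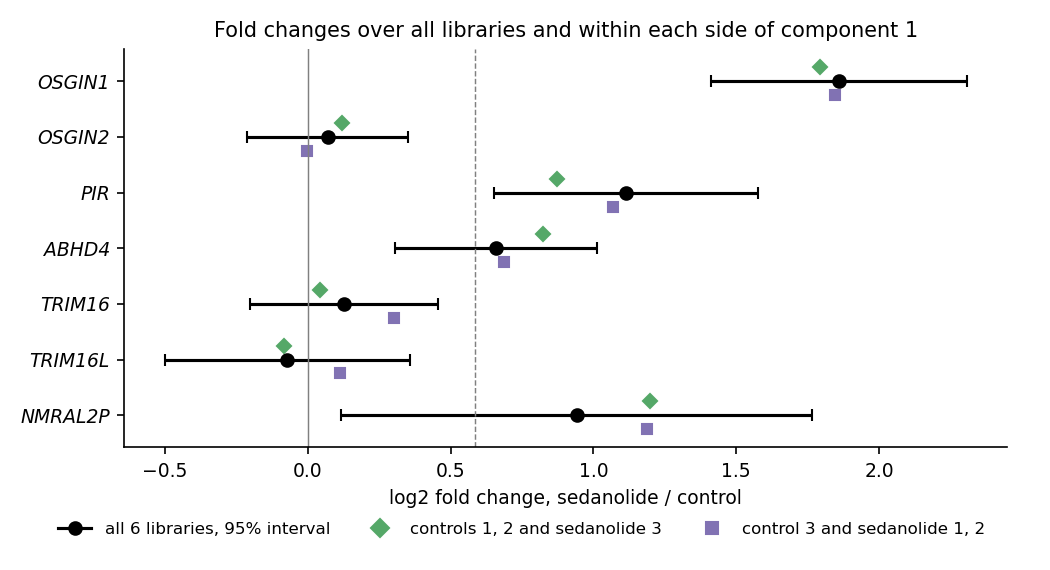
Log2 fold changes of the 7 genes over all 6 libraries with 95% intervals (black) and within each side of component 1 (green and purple). The solid line marks no difference and the dashed line a fold change of 1.5, and both sides of OSGIN1, PIR, ABHD4 and NMRAL2P lie beyond the dashed line.

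Across 11 other ways of processing all libraries, the log2 fold change of OSGIN1 lay between 1.74 and 1.88 and was past both thresholds in 10, and that of PIR lay between 0.97 and 1.13 and was past them in 5. ABHD4 was past them in 2 of 11, with 0.51 to 0.76. The calls also depended on single libraries. The log2 fold change of OSGIN1 ran from 1.71 to 1.98 when each library was left out in turn, and it was past both thresholds in 2 of the 6 fits, those without control 3 and without sedanolide 3. It lost the FDR threshold without control 1, without control 2, without sedanolide 1 or without sedanolide 2. PIR ran from 0.98 to 1.26 and was past both thresholds without sedanolide 3, at 1.26. ABHD4 ran from 0.52 to 0.73 and NMRAL2P from 0.63 to 1.13, and neither was called in any of these 6 fits. OSGIN2 stayed between 0.013 and 0.11 and TRIM16 between 0.048 and 0.18, and TRIM16L lay between -0.18 and 0.029.

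**Figure D4:**
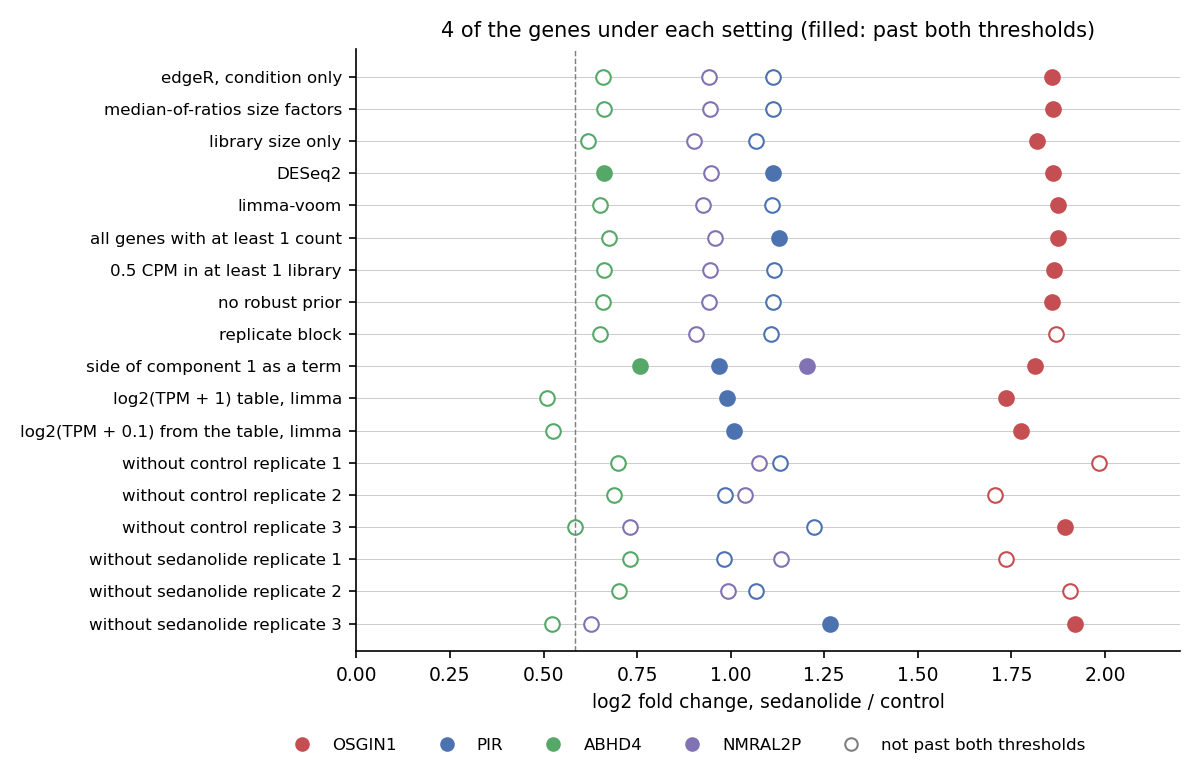
Log2 fold changes of OSGIN1, PIR, ABHD4 and NMRAL2P (colors) under each way of processing the data (rows), with filled points where the gene was past both thresholds, open points where it was not and a dashed line at a fold change of 1.5. OSGIN1 lies between 1.71 and 1.98 in all fits shown, whereas ABHD4 lies close to the dashed line, between 0.51 and 0.76.

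Promoters were searched on both strands for the ARE letters TGACNNNGC and for the exact form TGACTCAGC, which is contained in that pattern. RefSeq promoters, from 250 bases before to 50 bases after the start, were available for OSGIN1, PIR, ABHD4 and TRIM16. OSGIN2, TRIM16L and NMRAL2P had none there and were not searched. Of the 4 promoters searched, only that of PIR held either form in this window. Among all 35116 promoters, 13.3% held TGACNNNGC and 0.561% held TGACTCAGC. PIR held both, as a single match at chrX:15493299-15493307 that lies within the 50 bases after its start, as its capitals show. TGACTCA, the shorter form that TGACTCAGC contains, was searched after seeing the sequences and was found in 4.95% of all promoters, in PIR at the same place and in OSGIN1 at chr16:83953143-83953149, 97 bases before the start. In a window from 2000 bases before to 50 bases after the start, also chosen after seeing the data, TGACTCAGC was found in 2.82% of all promoters and, among the 4 members, in PIR, whose match after the start this window includes. With only the 250 bases before the start, it was found in 0 members. TGACNNNGC was found in the longer window in all 4 members and in 53% of all promoters. Of 48 promoters of other NRF2 targets, 14 held TGACNNNGC in the shorter window (29.2%) and 2 held TGACTCAGC, those of AIFM2 and ME1. A match describes letters and is not a measured binding site.

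Other NRF2 targets give the setting of these values. Of a list of 46 such genes, chosen with earlier results of these data known, 42 had enough counts. At both thresholds 15 of these rose and 0 fell (edgeR quasi-likelihood test), where 0.355% of all genes were called as higher. The treated libraries lay above all controls in 29 of the 42 and below in 0, beside 8.69% and 9.65% of all genes tested. The median log2 fold change was 0.84, and that of the 7 members was 0.66. Since this list and the members were chosen with such results known, nothing is read from these shares and medians. Those past both thresholds include enzymes that reduce carbonyls and enones (AKR1B10 at 3.27, PTGR1 at 2.67 and AKR1C1 at 2.29) and both subunits of glutamate cysteine ligase, which starts glutathione synthesis (GCLM at 1.87 and GCLC at 1.66). They also include the glutathione transferases GSTA1 at 2.35 and GSTA2 at 1.96, the exporter ABCC3 at 1.80, sulfiredoxin SRXN1 at 1.58, the peroxidase GPX2 at 1.52 and thioredoxin reductase TXNRD1 at 1.49. The quinone reductase NQO1 at 1.21, the epoxide hydrolase EPHX1 at 1.18 and the ferritin subunits FTL at 0.96 and FTH1 at 0.86 complete the 15. GSTA1 and GSTA2, the AKR1C genes and the ferritin genes have near-identical copies or pseudogenes, so that their single values are uncertain. OSGIN1, at 1.86, lay next to GCLM in size, and GCLM averaged 30.3 ± 3.25 CPM in controls against 110.9 ± 6.96 CPM after treatment (SD, n = 3). The lowest estimates in the list were -0.26 for AKR1C3, -0.14 for the heme transporter SLC48A1 and -0.05 for RIT1, and none of these was past the thresholds. The count of 15 became 27 when the side of component 1 entered the fit, all 15 among them, and it fell to 0 without control 1 or without sedanolide 2, to 4 without control 2 and to 6 without sedanolide 1.

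**Figure D5:**
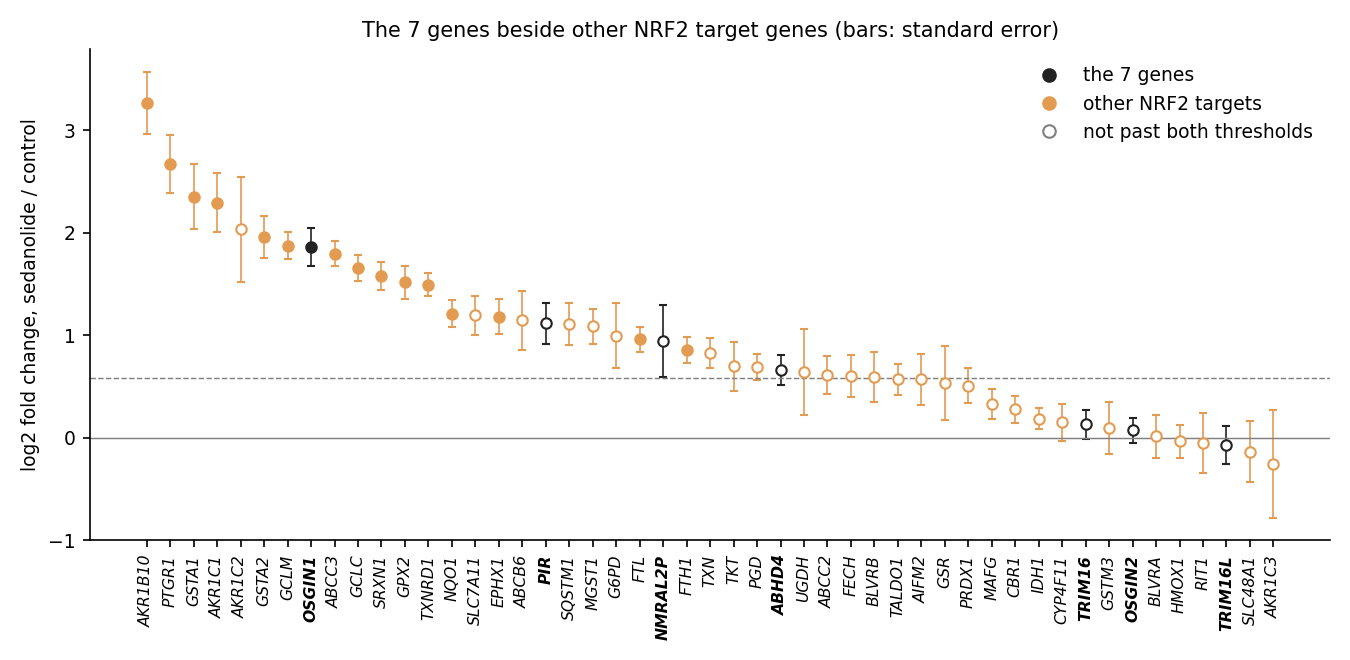
Log2 fold changes of the 42 other NRF2 targets tested, in order of size, with the 7 members drawn among them in black, bars for the standard error and open points for genes not past both thresholds. The list runs from -0.26 (AKR1C3) to 3.27 (AKR1B10), and OSGIN1 lies beside GCLM (1.87).

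The families and known partners of the members held 0 genes past both thresholds in either direction by edgeR. Over these lists, which share some genes, 87 genes were tested and 12 had an unadjusted p-value under 0.05, where 1679 of all 14102 genes had one (11.9%). With DESeq2 3 genes were called, namely LGALS3, LGALS8 and TRIM73, beside SQSTM1, which is counted with the NRF2 targets. Of all 14102 genes tested, DESeq2 called 326. In the TRIM family without the members, 42 genes were tested, the median log2 fold change was -0.06, and treated libraries lay above all controls in 6 and below in 3. In the ABHD family without ABHD4, 18 genes were tested, the median was 0.01, and treated libraries lay above all controls in 0 and below in 1, ABHD6. Over all genes tested, treated libraries lay above all controls in 8.69% and below in 9.65%, and neither family was tested as a group. ABHD5, the closest relative of ABHD4, had a log2 fold change of 0.32 (standard error 0.16), and NMRAL1, the parent gene of NMRAL2P, one of 0.06 (standard error 0.26). The libraries of the conditions overlapped in both.

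Of 7 other genes of N-acylethanolamine metabolism tested, 1 had treated libraries above all controls and 3 had them below, beside 8.69% and 9.65% of all genes, and the group itself was not tested. NAAA, which hydrolyses N-acylethanolamines in lysosomes, averaged 11.1 ± 0.850 CPM in controls against 15.5 ± 0.178 CPM after treatment (SD, n = 3). FAAH and FAAH2, which hydrolyse the same lipids, had log2 fold changes of -0.73 (standard error 0.25) and -0.95 (standard error 0.26) at 0.916 to 2.12 CPM on average, and neither passed the thresholds. NAPEPLD, which makes N-acylethanolamines by another route, had one of -0.23 (standard error 0.22).

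The partners of pirin and of TRIM16 were treated in the same way. Of 9 pirin partners tested, 0 had treated libraries above all controls and 1 had them below, NFIX at -0.25. BCL3, NFKB1 and RELA had log2 fold changes of 0.19, 0.09 and 0.16. Of 11 TRIM16 partners tested, 3 lay above all controls, namely the galectin LGALS3 at 0.65, the autophagy receptor SQSTM1 at 1.11 and KEAP1 at 0.65. LGALS8 at -0.66 lay below. Over all genes tested these shares were 8.69% above and 9.65% below, and neither group of partners was tested as a group. The transcript of NRF2 itself, NFE2L2, averaged 254.8 ± 19.8 CPM in controls against 239.4 ± 39.4 CPM after treatment (SD, n = 3), with a log2 fold change of -0.09 (standard error 0.15). Partner genes other than those past the thresholds were chosen for naming after their values were seen.

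On the chromosome, the nearest tested gene on each side of each member gave 14 neighbours. By edgeR 0 of them were past both thresholds, 0 had an unadjusted p-value under 0.05, and 0 were called by DESeq2. Beside OSGIN1, MLYCD had a log2 fold change of -0.44 (standard error 0.20), opposite in sign to OSGIN1 although its gene overlaps the start of the OSGIN1 model, and MBTPS1 one of -0.08 (standard error 0.25). PIGA beside PIR had one of 0.09 (standard error 0.20). DAD1 and OXA1L-DT beside ABHD4 had 0.16 and 0.39, and TRA2B and ETV5 beside NMRAL2P had 0.21 and -0.44. RIPK2 and NBN beside OSGIN2 had 0.27 and 0.18, TVP23C and ZNF286A beside TRIM16 had 0.28 and 0.08, and FOXO3B and TVP23B beside TRIM16L had 0.01 and -0.04.

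Genes whose log2 CPM followed that of OSGIN1 most closely over the 6 libraries were an unnamed gene, ENSG00000267317 (Pearson r = 0.997), the clathrin adaptor subunit AP1M2 (0.996), DNAJC25 (0.995), the tubulin TUBA1C (0.995) and the microtubule protein MAP1A (0.994). These are the highest values among all genes tested and are given as a description, since the 6 points share the treatment and the libraries. Of these, AP1M2 at a log2 fold change of 1.04 and MAP1A at 1.65 passed both thresholds. After the mean of each condition was subtracted, the genes closest to OSGIN1 were NINJ1, MTG1, GOLGA2P10, CAMSAP3 and CDC42EP5 (r between 0.995 and 0.998), with log2 fold changes from 0.0037 to 0.36 that were not past the thresholds. The lists before and after this step shared 0 genes.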

How the data were processed

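Reads of 150 bp were, per the labels and methods, checked with FastQC, trimmed with Trimmomatic, aligned to GRCh38 with STAR and quantified with RSEM by the authors, with versions and annotation release not given in the sources used here. The authors deposited expected counts for each gene, not normalized, and a second table of log2(TPM + 1), whose filter is not stated. In R 4.3.3, rounded expected counts were passed through filterByExpr and TMM normalization to the robust quasi-likelihood fit of edgeR 4.0.16, in which condition was the single term. Calls required a 1.5-fold difference and a Benjamini-Hochberg FDR of 0.05. DESeq2 1.42.0 and limma 3.58.1 (voom, and the log2 table with a pseudocount of 1 or 0.1) were alternatives, as were other filters and scalings. Precision is limited by 3 libraries per condition. All 6 libraries were used. The procedure was tested on simulated counts drawn independently for each library. These held no split along component 1, so that the test does not cover it.

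The members and lists were chosen with earlier results of these data known. Genes named were all members, other NRF2 targets past both thresholds and the 3 lowest, closest paralogs, the nearest tested genes on each side, and the 5 most like OSGIN1, before and after subtraction of condition means. Partner and marker genes named outside this rule were chosen after their values were seen. Of the genes this rule names, 1 is not reported here, and it stays in all fits and counts. Positions and biotypes are from GENCODE 44, and promoters from RefSeq (GRCh38.p14).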

Additional observations from a re-analysis of the deposited data

How the results depend on the processing

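The edgeR test described above called 94 genes, 1 member, 15 other NRF2 targets and 0 of 87 genes of the family and partner lists. DESeq2 called 326 genes, 3 members and 3 list genes, with PIR at 1.11 and ABHD4 at 0.66. Testing all genes with at least 1 count called 157 genes and 2 members, with PIR at 1.13. Scaling by library size only called 1 list gene. An FDR of 0.01 left 10 genes, 0 members and 5 NRF2 targets. The side of component 1 as a term called 379 genes, 4 members, 27 NRF2 targets and 3 list genes (FAAH2, LGALS8 and TRIM73, all lower), with PIR at 0.97, ABHD4 at 0.76, NMRAL2P at 1.20 and TRIM16L turned to 0.019. The log2 table called 60 genes and 2 members with PIR at 0.99, and with a pseudocount of 0.1 called 2 members with PIR at 1.01. Leaving out single libraries gave 0 to 135 genes, 0 to 2 members, 0 to 19 NRF2 targets, OSGIN1 at 1.71 to 1.98, PIR at 0.98 to 1.26 and TRIM16L at -0.18 to 0.029, positive without control 1 (0.029) and without sedanolide 1 (0.022). No gene was called without control 1 or without sedanolide 2 (unadjusted p-values under 0.05 in 1065 and 887 genes). Deviations of same-numbered libraries from their condition means correlated at -0.13, -0.30 and -0.73. Component 1 held 56.1% of the variance, so that these correlations cannot decide whether the numbers mark paired cultures. With the replicate block 0 genes, 0 members and 0 NRF2 targets were called (770 genes at an unadjusted p-value under 0.05), with OSGIN1 at 1.87. TGACTCAGC was found in 1 member promoter, and in 0 with only the 250 bases before the start. The cause of these changes was not tested.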
